A study of Mus musculus with 3 samples.

Results

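Liver iron control was described here through 10 genes, those for hepcidin (Hamp and Hamp2), the iron exporter ferroportin (Slc40a1), the bone morphogenetic proteins Bmp2 and Bmp6, both transferrin receptors (Tfrc and Tfr2), transferrin (Trf), matriptase-2 (Tmprss6) and the homeostatic iron regulator Hfe. They were taken by symbol, for their known roles in iron sensing, transport and hepcidin control, from the 32285 genes of the count matrices, and all 10 were found. The study prepared nuclei from frozen liver of male C57BL/6J mice for single-nuclei RNA sequencing (sNuc-Seq), with 1 library per mouse. The ND mouse was a control on a normal diet with a disease state given as normal. The 2 STZ-HFHC mice had MASH-related liver fibrosis after 0.2 mg of streptozocin under the skin at 3 days of age, which destroys pancreatic islets, and a high-fat, high-cholesterol diet from 4 weeks of age. Streptozocin, diet and disease state therefore differed together between the groups, and no age at sampling is given for the sequenced mice. The sample titles also carry a code whose first part differs between ND and both STZ-HFHC mice, and its meaning is not given.

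Hepcidin is a peptide hormone that hepatocytes secrete. It binds ferroportin on macrophages, gut cells and hepatocytes and has it degraded, which keeps iron inside these cells. Hepatocyte hepcidin transcription rises when BMP2 and BMP6, made largely by liver sinusoidal endothelial cells, bind BMP receptors together with hemojuvelin (Hjv), and when interleukin-6 acts through STAT3. Transferrin carries iron in plasma, TFR2 and HFE take part in sensing it, TFR1 (Tfrc) takes it up, and matriptase-2 lowers hepcidin by acting on the BMP pathway. Mice carry a second hepcidin gene, Hamp2, which is not known to control iron.

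In GRCm38, Hamp lies at chr7:30942368-30944032 and Hamp2 at chr7:30922372-30924681, both on the minus strand and both overlapped on the other strand by Gm44662. Slc40a1 lies at chr1:45908068-45926523 (minus), Bmp2 at chr2:133552159-133562885 (plus), Bmp6 at chr13:38345107-38500302 (plus), Tfrc at chr16:32608920-32632794 (plus) and Tfr2 at chr5:137569840-137587481 (plus). Trf lies at chr9:103204001-103230444 (minus), Tmprss6 at chr15:78439667-78468634 (minus) and Hfe at chr13:23702034-23710854 (minus). All 10 are annotated as protein coding. Bmp6 is overlapped on the other strand by 4930579J19Rik and Txndc5, and Trf on its own strand by Gm20425, so some reads there may belong to the neighbour.

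The promoter sequences of both hepcidin genes are shown because the BMP and STAT inputs meet there. Each line gives 100 bases upstream of the gene start in the RefSeq annotation of GRCm38.p6, 5′ to 3′ on the gene's own minus strand. The lines begin at base -156 (Hamp) and -153 (Hamp2) from that start. The gene positions above are from GENCODE M21. There the Hamp2 stretch lies inside the gene, so these annotations differ in where Hamp2 starts. Capitals mark the 6 bases that align with the BMP response element of Hamp and the 9 bases of a STAT element.
Hamp, chr7:30944086-30944185: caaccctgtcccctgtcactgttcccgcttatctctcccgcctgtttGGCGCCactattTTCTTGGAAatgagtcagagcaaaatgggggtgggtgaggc
Hamp2, chr7:30924235-30924334: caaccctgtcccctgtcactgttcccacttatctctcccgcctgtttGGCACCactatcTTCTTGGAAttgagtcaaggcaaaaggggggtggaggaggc
The stretches shared 91 of 100 bases. Of the 9 substitutions, G51A, counted from the first base printed with the Hamp base first, falls inside the BMP element. The Hamp stretch thus held GGCGCC, searched on both strands, and the Hamp2 stretch did not. The STAT motif TTCNNNGAA was present in both. These motifs do not overlap here. Over all 32851 RefSeq promoter windows of 300 bases, 11.9% held GGCGCC and 8.30% held TTCNNNGAA, so a match by itself is common. The longest transcripts of Hamp and Hamp2 are 410 and 437 bases long and 94.6% identical, with an identical run of 87 bases, so counts of Hamp2 are uncertain where reads could belong to either gene.

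Filtering left 8494 (ND), 8921 (STZ-HFHC 1) and 10921 (STZ-HFHC 2) nuclei, with median depths of 3015 to 4068 unique molecular identifiers (UMIs) per nucleus and 42715797 to 55632923 UMIs per library. Between 20 and 27 cell barcodes were shared by each pair of libraries. Nuclei were clustered without the 74 genes of the iron list, which are the 10 members and 64 further genes of iron handling, and clusters were called X-like from marker lists. Hepatocyte-like nuclei numbered 5438, 3012 and 4797 in ND, STZ-HFHC 1 and STZ-HFHC 2. Endothelial-like nuclei numbered 1167, 884 and 1037, stellate or fibroblast-like nuclei 1191, 638 and 1319, and macrophage-like nuclei 244, 1644 and 1083, respectively. Monocyte-, T or NK cell-, B cell-, cholangiocyte- and mesothelial-like nuclei made up the other 5 classes, with at least 33 nuclei per library. Nuclei of ND and STZ-HFHC sat mostly in different clusters of the same class. Hepatocyte-like nuclei of ND were in clusters 2, 7, 14 and 17 and those of STZ-HFHC in clusters 0, 1, 8 and 16, and cluster 1 had the T cell gene Themis, but none of the hepatocyte markers, among its top 10 genes. Endothelial-like nuclei were mostly in cluster 10 in ND and in cluster 4 in STZ-HFHC. Among the top 10 genes of cluster 10 were Clec4g, but also Gm15622, Gm15401, Bhmt and Gm14764. The latter were among the top genes of ND hepatocyte-like cluster 2 as well. Cluster 10 had a median depth of 5266 UMIs, against 4024 UMIs in hepatocyte-like nuclei of ND. The part of hepatocyte RNA or doublets in this was not tested. Macrophage-like nuclei were in cluster 21 in ND and in clusters 6 and 13 in STZ-HFHC. Most stellate or fibroblast-like nuclei were in cluster 11 in ND and in cluster 3 in STZ-HFHC.

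Hepatocyte RNA was present in every class, and this bears on each value below. For 10 abundant hepatocyte transcripts, such as Alb and Ttr, the median level in endothelial-like nuclei was 74.1%, 73.1% and 89.3% of that in hepatocyte-like nuclei of the same library (ND, STZ-HFHC 1 and STZ-HFHC 2). It was 73.7%, 73.5% and 71.1% in stellate or fibroblast-like nuclei and 77.8%, 77.3% and 86.3% in macrophage-like nuclei. Single transcripts spread widely around this median. They ranged from 59.2% to 93.0% in endothelial-like nuclei of ND and from 54.1% to 156% in those of STZ-HFHC 1. In macrophage-like nuclei of STZ-HFHC 2 the range was 65.3% to 191%. The marker levels of the classes differed between groups as well. In endothelial-like nuclei the 13 endothelial markers summed to 2264, 5213 and 3493 CPM (the usual scale of UMIs of a gene relative to all UMIs of those nuclei). The 18 macrophage markers summed to 1336, 3631 and 2562 CPM in macrophage-like nuclei. The 12 stellate or fibroblast markers summed to 1556, 5790 and 4561 CPM in their own class. No marker of these lists was at 0 there. In monocyte-like nuclei the 8 monocyte markers summed to 248, 1091 and 723 CPM and the 8 dendritic cell markers to 708, 319 and 338 CPM. The name of that class is therefore uncertain in ND, where it held 40 nuclei. The endothelial gene Pecam1 was at 67.0 CPM in cluster 10 of ND, above the 6.78 CPM of ND hepatocyte-like cluster 2. In cluster 4 it was at 318 and 190 CPM in STZ-HFHC 1 and 2. CPM is a share of all UMIs of a class, hepatocyte RNA included, so the levels of Bmp2, Bmp6 and Slc40a1 are given on 2 scales, in CPM and per UMI of the markers of the class. Levels are UMI sums over the nuclei of a class in 1 library, intervals are 95% exact Poisson or binomial intervals that cover counting error only, and CPM is not divided by gene length, so levels of different genes are not compared.

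**Figure D1:**
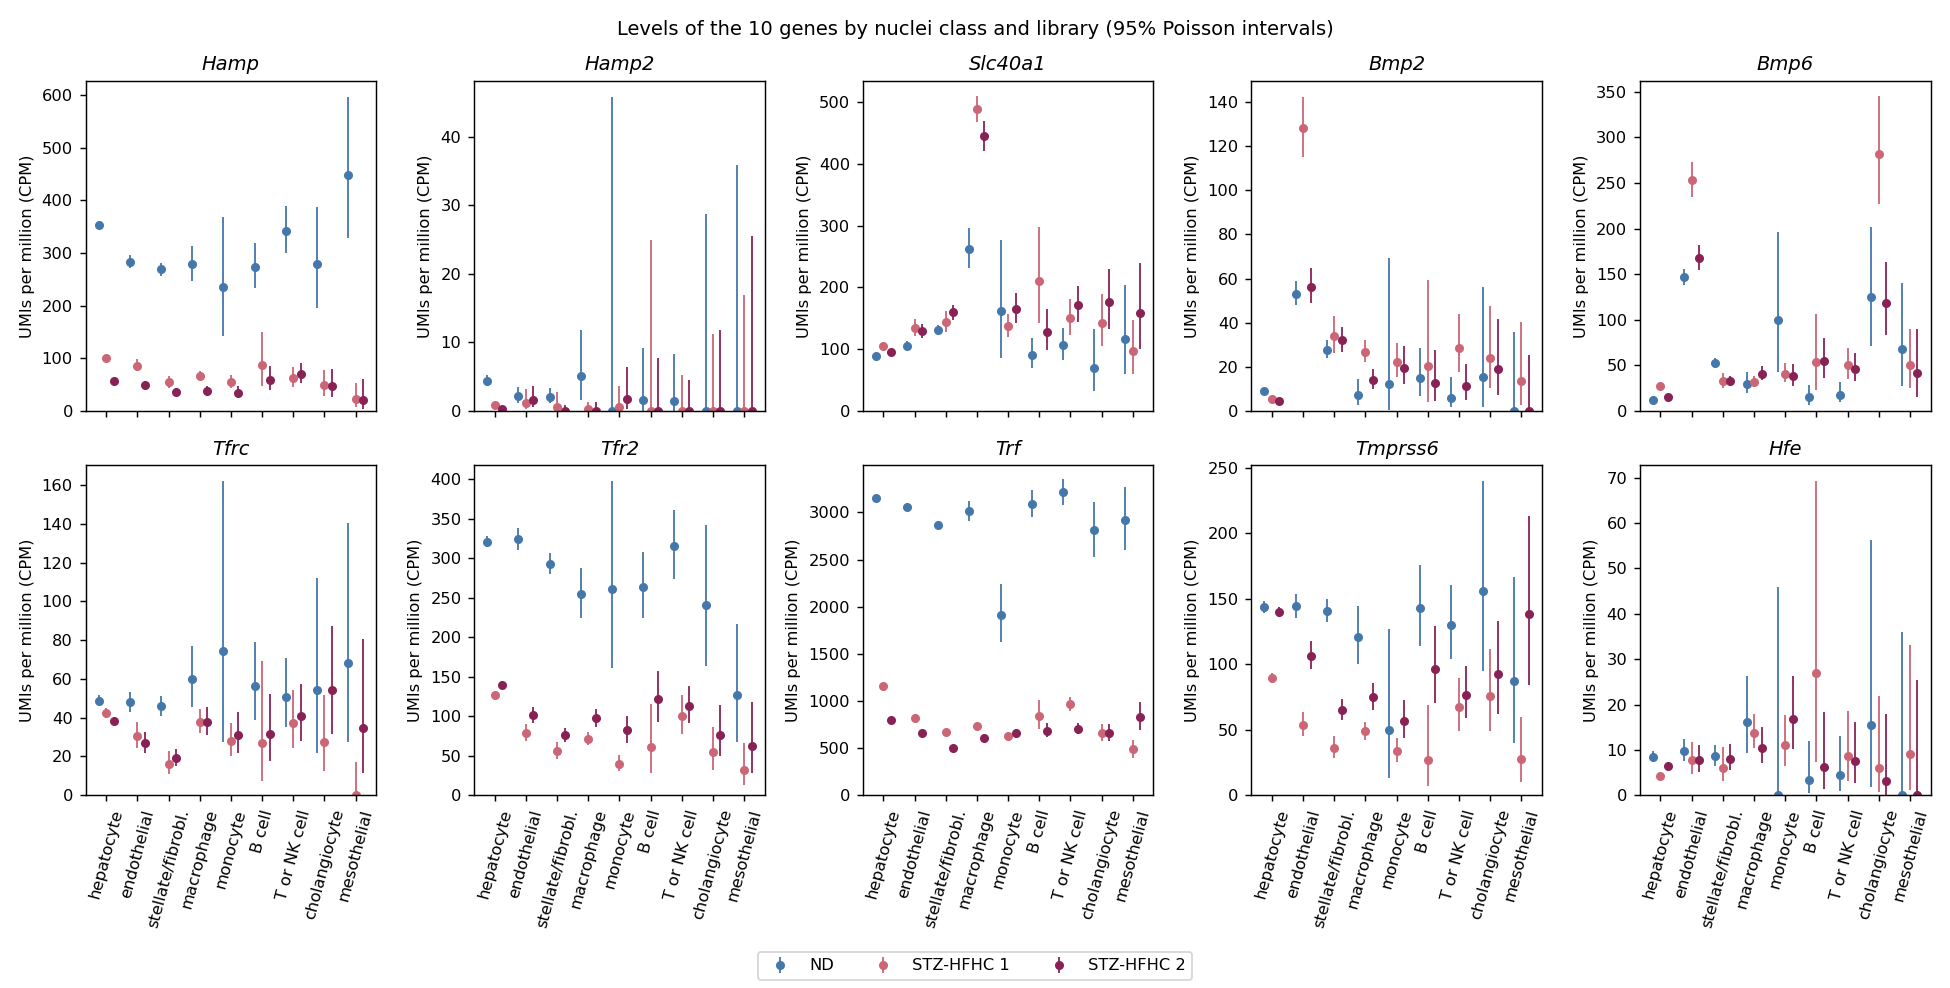
Levels of the 10 genes in 9 classes of nuclei, in CPM, with 1 point per library and 95% Poisson intervals. Hamp, Tfr2, Trf and Tmprss6 were spread over all classes, whereas Bmp2 and Bmp6 were high in endothelial-like nuclei and Slc40a1 in macrophage-like nuclei of all 3 libraries.

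Hamp was lower in both STZ-HFHC mice than in the ND mouse. In hepatocyte-like nuclei its level in the ND mouse was 353 CPM (9128 UMIs), against 101 CPM (2643 UMIs) and 57.5 CPM (2030 UMIs) in STZ-HFHC 1 and 2. The STZ-HFHC levels were thus 3.50-fold (95% interval of the ratio 0.273 to 0.298) and 6.14-fold (0.155 to 0.171) lower, with a mean log2 ratio to ND of -2.21 ± 0.57 (SD, n = 2). With 1 ND mouse there is no spread for the control group, so no test of any difference from ND was made here, and the fold rule below is a rule of size. The intervals of the 3 mice did not overlap, and the 2 STZ-HFHC mice also differed from each other by more than counting error. Hamp2 was sparse, with 114, 24 and 11 UMIs in hepatocyte-like nuclei, or 4.41, 0.915 and 0.312 CPM, and its mean log2 ratio was -3.01 ± 1.07.

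The clusters gave the same order when taken by number, which matters because Themis led one of them. Hamp was at 344, 365, 549 and 98.0 CPM in ND clusters 2, 7, 14 and 17. In STZ-HFHC 1 it was at 160, 64.4, 102 and 31.9 CPM in clusters 0, 1, 8 and 16, and in STZ-HFHC 2 at 89.6, 28.8, 90.6 and 19.8 CPM. The highest value, in cluster 14, went with major urinary protein and mitochondrial genes as leading genes, and the lowest of each mouse, in clusters 17 and 16, with the pericentral genes Glul and Slc1a2. Of these ND clusters, cluster 17 alone lay within the range of the STZ-HFHC clusters. A small cluster shared by the libraries, cluster 23, led by the interferon genes Rsad2 and Ifit1, had 422, 226 and 29.6 CPM from 30, 27 and 46 nuclei.

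Other secreted proteins of hepatocytes were lower in the same nuclei, and the enzyme gene Cps1 was not. Over the list of 10 abundant hepatocyte transcripts the median log2 ratios of STZ-HFHC 1 and 2 to ND were -1.41 and -1.65. Mean log2 ratios were -0.57 for Alb, -1.45 for Ttr, which encodes transthyretin, and -2.69 for Apoa1, which encodes the main protein of high-density lipoprotein. That of Cps1, the first enzyme of the urea cycle, was 0.34. Mitochondrial genes held 0.162% of the UMIs of ND hepatocyte-like nuclei and 0.0403% and 0.0329% of those of STZ-HFHC. The part of these differences in the lower Hamp was not tested.

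**Figure D2:**
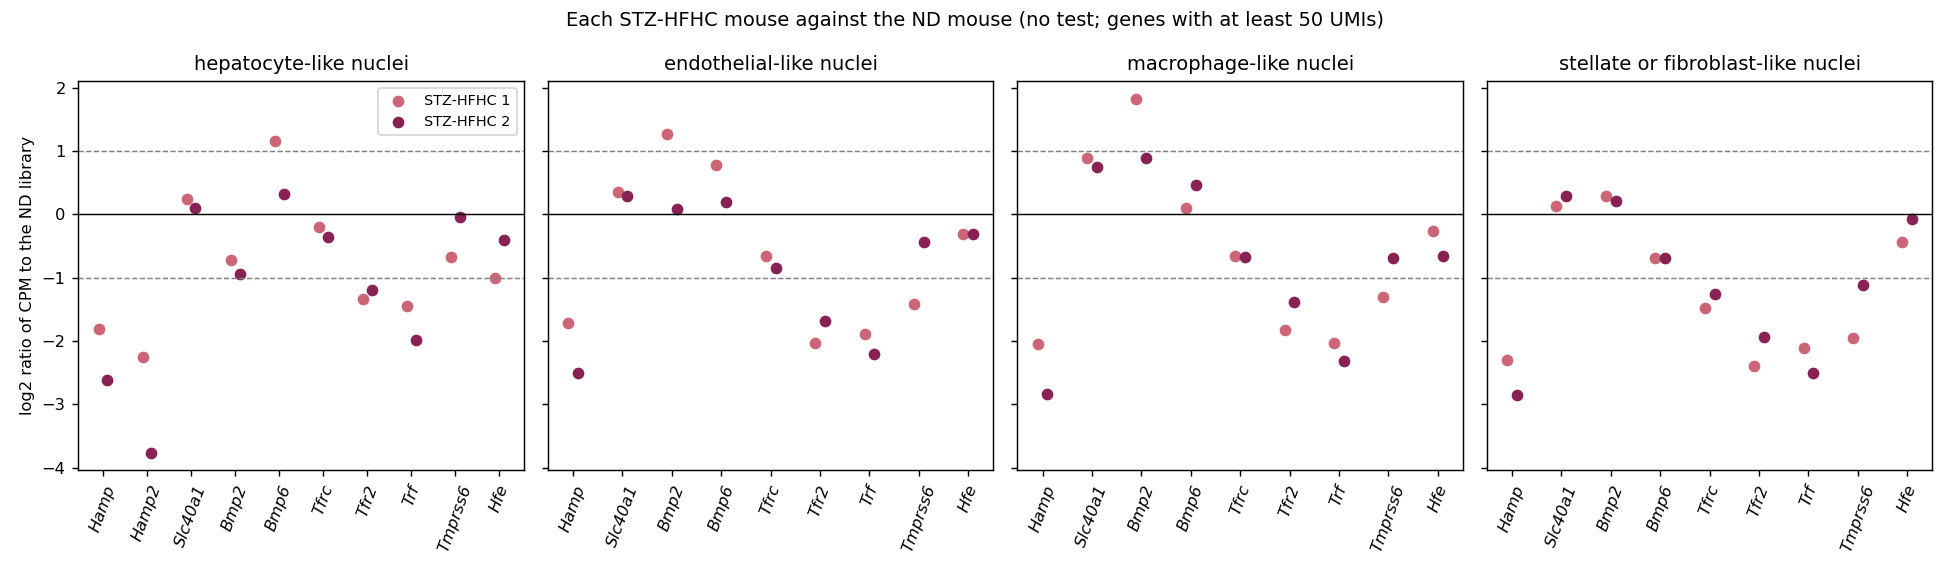
Log2 ratio of each gene to ND in hepatocyte-, endothelial-, macrophage- and stellate or fibroblast-like nuclei, with 1 point per STZ-HFHC mouse and dashed lines at a ratio of 2-fold. Hamp, Tfr2 and Trf lay below -1 in both mice in all 4 classes, and no member lay above 1 in both mice.

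Transferrin and its receptor Tfr2 were lower as well. Trf, the plasma iron carrier, was at 3154 CPM in hepatocyte-like nuclei of ND and at 1161 and 798 CPM in STZ-HFHC 1 and 2, which is 2.72- and 3.95-fold lower (mean log2 ratio -1.71 ± 0.38). Tfr2, the receptor with a role in sensing transferrin iron, was at 321 CPM in ND and at 127 and 140 CPM in STZ-HFHC, 2.53- and 2.29-fold lower (-1.27 ± 0.10). Both STZ-HFHC mice lay below ND for both genes, and the intervals of the 2 mice did not overlap for either gene. By cluster, Tfr2 ranged from 305 to 328 CPM in the 4 large ND clusters and from 87.7 to 152 CPM in the 8 values of the STZ-HFHC clusters 0, 1, 8 and 16.

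The other genes with roles in hepatocytes stayed within 2-fold of ND in at least 1 mouse. Tmprss6, the protease that lowers hepcidin, was at 144 CPM in ND and at 89.6 and 140 CPM in STZ-HFHC 1 and 2, so that 1 mouse was 1.60-fold lower and the other overlapped ND within counting error. Tfrc, the receptor for transferrin uptake, was at 48.9, 42.4 and 38.1 CPM (mean log2 ratio -0.28 ± 0.11). Hfe was at 8.47, 4.19 and 6.37 CPM from 219, 110 and 225 UMIs. Slc40a1 in hepatocyte-like nuclei was at 88.7, 105 and 95.2 CPM, with the smallest mean log2 ratio among members (0.17 ± 0.10).

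Of the 10 members, 4 (Hamp, Hamp2, Tfr2 and Trf) were at least 2-fold lower in both STZ-HFHC mice in hepatocyte-like nuclei and 0 were at least 2-fold higher. Over all 14850 genes with at least 50 UMIs there, 5.5% passed this rule as lower and 8.38% as higher. Among members the median log2 ratio was -0.77, against 0.09 over all genes. In endothelial-like nuclei 3 of the 9 members with enough UMIs (Hamp, Tfr2 and Trf) passed as lower and 0 as higher, against 5.18% and 8.13% of all genes. The same 3 members passed as lower in macrophage-like nuclei, where 4.81% of all genes did so and 15.8% passed as higher. In stellate or fibroblast-like nuclei 5 of 9 (Hamp, Tfrc, Tfr2, Trf and Tmprss6) passed as lower, against 8.37% of all genes, and 0 as higher, against 11.3%. These classes share the hepatocyte RNA of their library, so the 4 counts are not separate observations.

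Hamp, Trf, Tfr2 and Tmprss6 were not called different between endothelial-like and hepatocyte-like nuclei. Hamp in endothelial-like nuclei was at 283, 86.1 and 49.7 CPM in ND, STZ-HFHC 1 and STZ-HFHC 2, with a difference from hepatocyte-like nuclei of -0.26 ± 0.18 (log2 ± SE, n = 3 libraries, edgeR quasi-likelihood, adjusted p = 0.332). Trf differed by -0.29 ± 0.16 (adjusted p = 0.229), Tfr2 by -0.39 ± 0.15 (adjusted p = 0.0639) and Tmprss6 by -0.38 ± 0.18 (adjusted p = 0.137). All 4 were called lower by edgeR when nuclei were thinned to 1000 UMIs (-0.69, -0.56, -0.76 and -0.79), and Trf, Tfr2 and Tmprss6 also without ND replicate 1 (-0.39, -0.58 and -0.54). Set against the hepatocyte RNA share of the class, Hamp was at 0.968 times the level that this share alone would give, as the median of 9 sums over endothelial-, macrophage- and stellate or fibroblast-like nuclei, with a range of 0.734 to 1.17. Trf was at 0.926, Tfr2 at 0.809 and Tmprss6 at 0.822 times that level. Alb was at 0.940, but it is among the transcripts that define the share, so its value near 1 is no separate reference. Bmp2, Bmp6 and Slc40a1 were at 8.05, 3.05 and 2.00 times that level and Hfe at 1.91 times. The transcripts behind the share spread widely around its median, as given above, so all these ratios are approximate. Thinned to 1000 UMIs, 23.9%, 8.77% and 4.52% of hepatocyte-like nuclei had a Hamp UMI, with unthinned median depths of 4024, 7848 and 6529 UMIs. In B cell-like nuclei, which should not express it, the shares were 1.56% and 3.65% in STZ-HFHC and lay between 12.8% and 28.9% in ND (95% interval), with median depths of 2219, 1365 and 1438 UMIs. A Hamp UMI in a single nucleus outside the hepatocyte-like class was therefore not read as expression by that nucleus. Whether it came from free RNA, doublets or wrongly named nuclei was not tested.

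Both BMP ligands were higher in endothelial-like than in hepatocyte-like nuclei. Bmp6 was at 147, 253 and 168 CPM in endothelial-like nuclei of ND, STZ-HFHC 1 and STZ-HFHC 2, and at 12.4, 27.8 and 15.6 CPM in hepatocyte-like nuclei. All 3 libraries were higher, by 3.37 ± 0.27 on the log2 scale (edgeR, adjusted p = 3.208e-11). Bmp2 was at 53.1, 128 and 56.3 CPM in endothelial-like and at 8.89, 5.41 and 4.62 CPM in hepatocyte-like nuclei, a log2 difference of 3.52 ± 0.27 (adjusted p = 1.047e-11). The ranges of these classes lay apart for both genes. These 2 were the members called higher in endothelial-like nuclei, of 9 tested, and 0 were called lower, against 19.3% and 4.16% of the 11694 genes tested. Hamp2 did not pass the filter on low counts. The members had been left out of the clustering, whereas the 2000 variable genes used for it came from outside the iron list, and its part in the shares over all genes was not tested.

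Both ligands were higher in endothelial-like than in macrophage-like and stellate or fibroblast-like nuclei. Against endothelial-like nuclei, macrophage-like nuclei differed by -2.45 ± 0.29 for Bmp6 (edgeR, adjusted p = 1.667e-07) and by -2.14 ± 0.29 for Bmp2 (adjusted p = 1.532e-06). Stellate or fibroblast-like nuclei differed by -2.13 ± 0.27 for Bmp6 (adjusted p = 5.742e-07) and by -1.22 ± 0.26 for Bmp2 (adjusted p = 9.759e-04), and the Bmp2 call was lost without STZ-HFHC replicate 1 (adjusted p = 0.0630), with DESeq2 (0.0504) and without the library term (0.106). Stellate or fibroblast-like nuclei in turn exceeded hepatocyte-like nuclei in Bmp2 by 2.30 ± 0.27 (adjusted p = 3.816e-08) and in Bmp6 by 1.24 ± 0.27 (adjusted p = 4.873e-04), the latter lost without the library term (adjusted p = 0.102). Of the members, 1 was higher and 2 were lower in macrophage-like than in endothelial-like nuclei, against 9.57% and 6.33% of all genes. For stellate or fibroblast-like against endothelial-like nuclei 0 were higher and 2 lower, against 7.46% and 4.92%.

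Cholangiocyte-like nuclei, the bile duct class, also held Bmp6. Its level there was 125, 282 and 119 CPM from 16, 93 and 37 UMIs, a range that overlapped endothelial-like nuclei and lay above all other named classes. The endothelial markers summed to 778, 1344 and 1101 CPM in these nuclei with 1, 0 and 0 of 13 at 0, and the part of endothelial RNA in this level was not tested. Bmp2 stood at 15.6, 24.2 and 19.2 CPM in the same nuclei, below the range of endothelial-like nuclei. In a small endothelial-like cluster of STZ-HFHC, cluster 24 with 27 and 31 nuclei and Vwf and Gja5 among its leading genes, Bmp6 was at 519 and 209 CPM, beside 244 and 167 CPM in cluster 4.

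At the level of single nuclei thinned to 1000 UMIs, 18.5%, 22.5% and 18.7% of endothelial-like nuclei had a Bmp6 UMI. In hepatocyte-like nuclei it was 1.61%, 2.39% and 1.83%. Unthinned, the endothelial-like shares were 48.6%, 39.4% and 32.3%, at median depths of 5199, 1772 and 1926 UMIs. For Bmp2 the thinned shares were 6.58%, 14.7% and 7.62%, against 0.922%, 0.538% and 0.631% in hepatocyte-like nuclei.

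Whether the BMP ligands differed between ND and STZ-HFHC depended on the scale. In CPM, Bmp6 in endothelial-like nuclei was 1.73- and 1.15-fold of ND (mean log2 ratio 0.49 ± 0.42) and Bmp2 2.42- and 1.06-fold (0.68 ± 0.84). Per 1000 UMIs of the endothelial markers, Bmp6 was at 64.8 in ND and at 48.5 and 48.1 in STZ-HFHC, and Bmp2 at 23.4, 24.6 and 16.1. The mean log2 ratios were then -0.42 and -0.24, so no direction is given for either gene. In CPM, STZ-HFHC 1 was apart from the other mice for both genes, while per endothelial marker UMI it lay with STZ-HFHC 2 for Bmp6 and with ND for Bmp2.

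**Figure D3:**
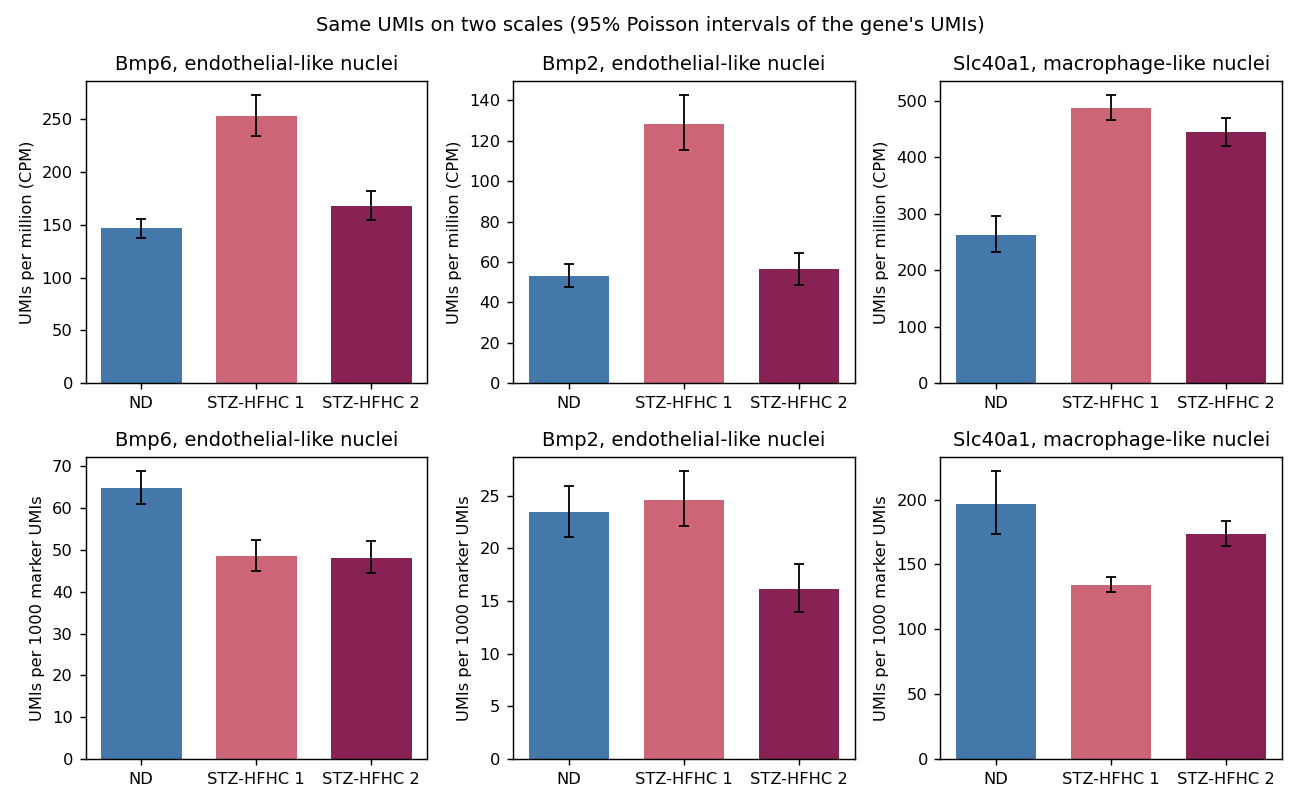
Bmp6 and Bmp2 in endothelial-like nuclei and Slc40a1 in macrophage-like nuclei, 1 value per library with 95% intervals, in CPM and per 1000 UMIs of the markers of the class. For Bmp6 and Slc40a1 both STZ-HFHC mice lie above ND in CPM and below ND per marker UMI.

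Of the named classes, ferroportin was highest in macrophage-like nuclei. Slc40a1 was at 263, 488 and 444 CPM in macrophage-like nuclei of ND, STZ-HFHC 1 and STZ-HFHC 2, against 88.7, 105 and 95.2 CPM in hepatocyte-like nuclei. The log2 difference was 2.02 ± 0.16 (edgeR, adjusted p = 9.472e-12), higher in 3 of 3 libraries, and against endothelial-like nuclei it was 1.67 ± 0.16 (adjusted p = 3.378e-09). The macrophage range lay above that of every other named class. By mean, monocyte-like nuclei came next at 138 to 165 CPM, with 13 UMIs in ND. Unnamed cluster 5, which held endothelial and macrophage markers together, was at 337, 325 and 300.5 CPM in ND, STZ-HFHC 1 and STZ-HFHC 2. That is above the macrophage-like class in ND and below it in both STZ-HFHC mice. Thinned to 1000 UMIs, 26.1%, 37.5% and 36.8% of macrophage-like nuclei had an Slc40a1 UMI, beside 8.43%, 10.5% and 9.31% of hepatocyte-like nuclei.

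Within the class the level differed by cluster. Cluster 6, led by Gpnmb, Atp6v0d2 and Mmp12, was at 642 and 648 CPM in the STZ-HFHC mice. Cluster 13, with Cd5l and Vsig4 among its leading genes, was at 222 and 238 CPM in the same mice, and cluster 21 of ND, with Clec4f and Timd4, at 238 CPM. The nuclei of cluster 13 had the higher doublet scores, with 33.2% and 27.5% of them in the top scores of their library, against 5.25% and 1.93% in cluster 6. Alb was at 2085 and 1699 CPM in cluster 13, at 1045 and 1286 CPM in cluster 6 and at 2650 CPM in cluster 21, and the part of hepatocyte RNA in these differences was not tested. Against ND the class as a whole was 1.86- and 1.69-fold higher in CPM. Per 1000 UMIs of the macrophage markers it was at 197 in ND and at 134 and 173 in STZ-HFHC, and at a clustering resolution of 0.5 or 2 the CPM ratio turned to -0.80 and -1.02 on the log2 scale, so no direction is given.

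Among the other members in macrophage-like nuclei, Hfe was higher than in hepatocyte-like nuclei by 1.11 ± 0.29 (edgeR, adjusted p = 0.00351) from 16, 57 and 30 UMIs. Bmp2 was higher by 1.38 ± 0.31 (adjusted p = 7.960e-04) and Bmp6 by 0.92 ± 0.29 (adjusted p = 0.0150). Hamp differed by -0.49 ± 0.18 (adjusted p = 0.0378), Tfr2 by -0.58 ± 0.15 (adjusted p = 0.00439) and Tmprss6 by -0.70 ± 0.19 (adjusted p = 0.00481). Each of these 6 calls was lost without at least 1 STZ-HFHC mouse. Without STZ-HFHC replicate 1 the adjusted p was 0.176 for Hfe, 0.165 for Bmp2, 0.157 for Hamp, 0.110 for Tfr2 and 0.0788 for Tmprss6, and without STZ-HFHC replicate 2 that of Bmp6 was 0.374. With Slc40a1, 4 of 9 members were called higher and 3 lower in macrophage-like nuclei, against 24% and 10.6% of all genes tested. Trf was not among these 3, but it was called lower under 10 of 14 alternatives. Its log2 difference ranged from -0.83 to -0.23 over all 14. Tfrc was at 59.8, 38.0 and 37.8 CPM in macrophage-like nuclei, a difference of 0.03 ± 0.21 from hepatocyte-like nuclei (adjusted p = 0.938).

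In stellate or fibroblast-like nuclei 3 members were called higher than in hepatocyte-like nuclei (Bmp2, Bmp6 and Slc40a1) and 5 lower (Hamp, Tfrc, Tfr2, Trf and Tmprss6), against 23.7% and 17.8% of all genes. Slc40a1 was at 131, 144 and 159 CPM there, a log2 difference of 0.59 ± 0.15 (edgeR, adjusted p = 0.00256), which was lost without STZ-HFHC replicate 2 (adjusted p = 0.156). The 5 lower members differed by -0.76 to -0.54, and each of these calls was lost without STZ-HFHC replicate 2, with adjusted p from 0.0585 to 0.207. Bmp6 was 52.6 CPM in ND and 32.5 and 32.7 CPM in STZ-HFHC, 1.62- and 1.61-fold lower, but the mean log2 ratio turned from -0.69 to 0.45 at resolution 0.5 and to 1.18 with each library clustered alone, so no direction is given. The ND nuclei of this class also held 1136 CPM of endothelial markers against 818 and 824 CPM. The part of endothelial RNA in this difference was not tested.

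Hepatocyte-like nuclei were also split by their pericentral share of zone marker UMIs at equal widths of that share into a periportal range near the inflowing blood, a middle and a pericentral range. This is a range and not a cell type, and in each library 107 to 265 nuclei of the periportal and pericentral ranges and 72 to 123 of the middle range lay near a cut. The periportal range held 37.3%, 44.3% and 51.2% of hepatocyte-like nuclei of ND, STZ-HFHC 1 and STZ-HFHC 2. Sds, a periportal marker used for the ranges, was among the top 10 genes of STZ-HFHC cluster 0. Whether a range marks the same zone in ND and STZ-HFHC was not tested. In ND, Hamp was at 311 CPM in the periportal, 528 CPM in the middle and 315 CPM in the pericentral range, so that the middle range was highest and the outer ranges were alike. The ND cluster with Glul and Slc1a2 among its leading genes, cluster 17, was at 98.0 CPM as given above, below the other large ND clusters, as cluster 16 was in STZ-HFHC. In STZ-HFHC it was lower in each range toward the central vein, from 136 to 109 and 54.6 CPM in STZ-HFHC 1 and from 79.1 to 56.8 and 22.7 CPM in STZ-HFHC 2. The log2 ratio of periportal to pericentral range was -0.02 in ND and 1.31 and 1.80 in STZ-HFHC.

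Bmp6 was also lower toward the pericentral range in both STZ-HFHC mice. It was at 44.5, 20.8 and 8.98 CPM in the 3 ranges of STZ-HFHC 1, at 19.2, 16.7 and 9.18 CPM in those of STZ-HFHC 2 and at 12.0, 9.32 and 13.5 CPM in ND. Within the STZ-HFHC mice its highest hepatocyte-like values were in cluster 8, with Nrg1 and Areg among its leading genes, at 55.2 and 34.8 CPM. Pecam1, an endothelial gene, was at 9.27 and 9.42 CPM in that cluster, beside 9.60 and 11.5 CPM in cluster 1, where Bmp6 was at 7.96 and 10.6 CPM. Slc40a1 was higher in the periportal range of all 3 mice, by 0.61, 0.69 and 0.50 on the log2 scale (mean 0.60 ± 0.09, SD, n = 3), with 110, 123 and 108 CPM there and 72.5, 76.3 and 76.5 CPM in the pericentral range. Trf, Tfr2, Tmprss6 and Bmp2 differed by -0.35 to 0.33 between these ranges over the mice.

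**Figure D4:**
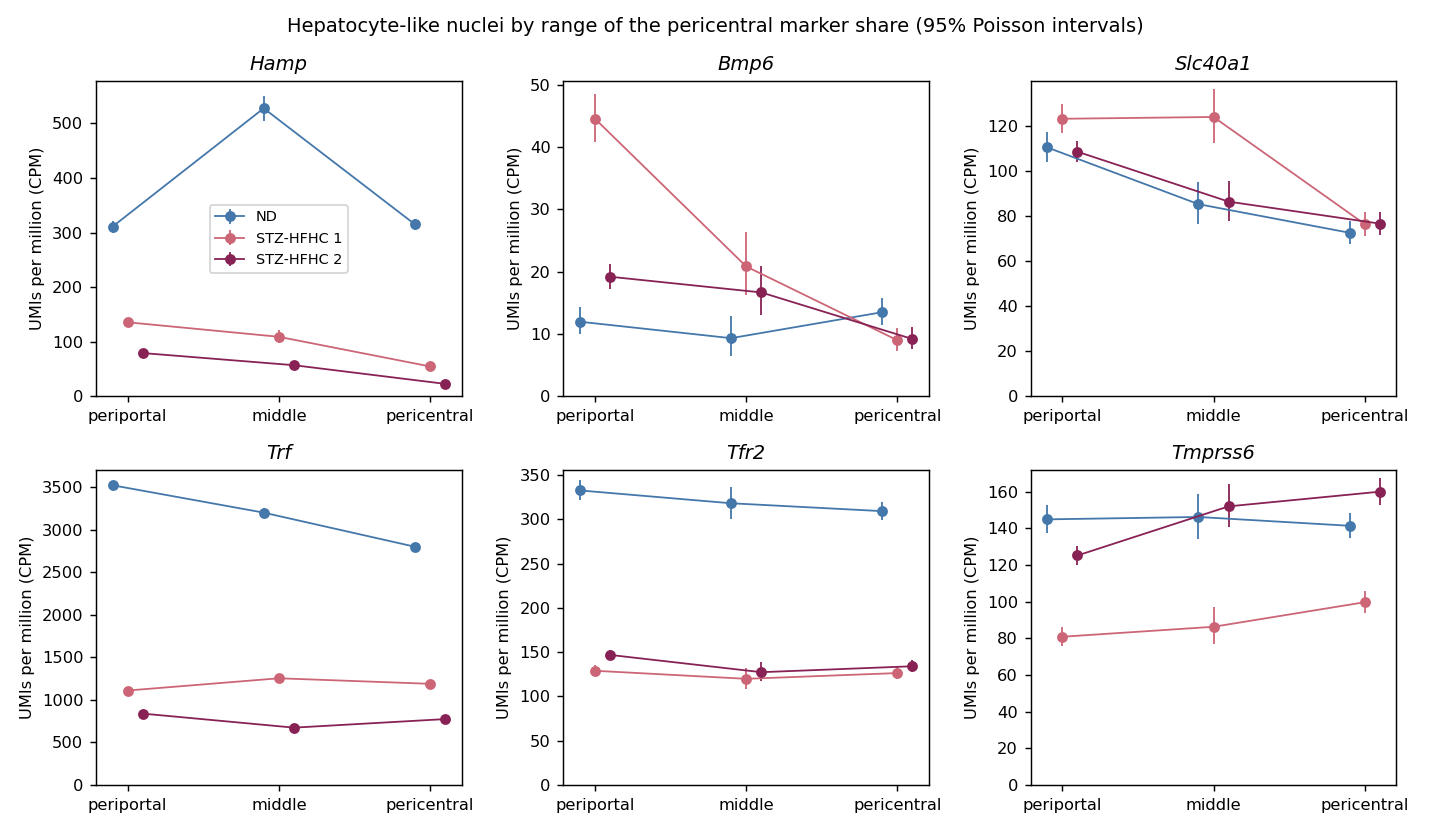
Levels in CPM of 6 members in the periportal, middle and pericentral ranges of hepatocyte-like nuclei, 1 line per mouse with 95% Poisson intervals. In both STZ-HFHC mice Hamp and Bmp6 are lower in each range from periportal to pericentral, in ND Hamp is highest in the middle range, and Slc40a1 is lower in the pericentral than in the periportal range of all 3 mice.

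The other 64 genes of the iron list were counted beside the members. In hepatocyte-like nuclei 60 had enough UMIs, of which 3 passed the fold rule as higher in STZ-HFHC and 2 as lower. Over all genes there, 8.38% passed as higher and 5.5% as lower. Hmox1, haem oxygenase 1, was 6.72- and 6.57-fold higher, from 2.4 CPM in ND to 15.9 and 15.5 CPM. Lcn2, the siderophore-binding lipocalin, was 34.1- and 10.8-fold higher, but from 5 UMIs in ND against 173 and 74 UMIs (95% intervals of the ratio 14.3 to 106 and 4.44 to 34.4). Slc25a37, the mitochondrial iron importer mitoferrin 1, was 2.86- and 3.15-fold higher, with 91.8 and 100.8 CPM against 32.0 CPM. Hp, which encodes the haemoglobin-binding haptoglobin, was 2.65- and 5.20-fold lower, and Iscu, the iron-sulphur cluster scaffold, 2.46- and 2.59-fold lower.

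In endothelial-like nuclei 8 of 58 passed as higher and 1 as lower, against 8.13% and 5.18% of all genes. The 5 with the largest smaller ratio were Hmox1 (3.55- and 4.10-fold), Smad6, an inhibitor of BMP signals (4.56- and 2.58-fold), Steap4, a metalloreductase (3.16- and 2.40-fold), Abcg2, a haem and drug exporter (2.51- and 2.29-fold) and Heph, a ferroxidase (3.92- and 2.24-fold). Hjv was the 1 that was lower (2.89- and 2.19-fold). In macrophage-like nuclei 8 of 55 passed as higher and 2 as lower, near the 15.8% and 4.81% of all genes. Here Hmox1 was 7.27- and 4.61-fold higher, the haem exporter Flvcr1 5.97- and 4.48-fold, from 5 UMIs in ND, the iron sensor Fbxl5 3.31- and 2.83-fold and Slc25a37 was at 126 and 87.0 CPM against 31.4 CPM. The BMP target Id1 also passed, but from 2 UMIs in ND, with ratios of 7.04 (95% interval 1.87 to 59.5) and 3.62 (0.885 to 31.8). Lower there were Hjv (2.36- and 2.96-fold) and Cp, the plasma ferroxidase ceruloplasmin (2.28- and 2.89-fold). Hjv was at 49.7, 21.1 and 16.8 CPM in macrophage-like and at 54.4, 23.4 and 27.6 CPM in hepatocyte-like nuclei. In stellate or fibroblast-like nuclei 6 of 57 passed as higher and 3 as lower, against 11.3% and 8.37% of all genes. These counts were not read as a result about the iron list. The marker sums of these classes, given above, were also higher in both STZ-HFHC mice. The hepatocyte RNA share was not lower throughout, at 74.1%, 73.1% and 89.3% in endothelial-like nuclei of ND, STZ-HFHC 1 and STZ-HFHC 2. In macrophage-like nuclei it was 77.8%, 77.3% and 86.3%. The part of either in the higher counts was not tested.

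By mean CPM over the 3 libraries, the class with the highest level was the macrophage-like class for Hmox1 and Flvcr1, the endothelial-like class for Smad6, Abcg2 and Slc25a37, the stellate or fibroblast-like class for Steap4 and Heph and the hepatocyte-like class for Hjv. It was the monocyte-like class for Hp and Fbxl5 and the cholangiocyte-like class for Lcn2 and Cp, while Id1 and Iscu were highest in mesothelial-like nuclei from 20 and 9 UMIs.

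Between classes, 15 of 59 genes of this list were called higher and 4 lower in endothelial-like than in hepatocyte-like nuclei. Of all genes tested, 19.3% were called higher and 4.16% lower. Among the higher were Smad6, with 142 against 11.8 CPM (3.36 ± 0.29, edgeR, adjusted p = 1.129e-10), and Heph (3.43 ± 0.34, adjusted p = 1.899e-09). Of the 8 BMP targets and inhibitors tested, 5 were higher and 1 lower. In macrophage-like nuclei 15 were higher and 5 lower, near the 24% and 10.6% of all genes tested. Of the 11 genes of haem uptake and breakdown 6 were called higher. Among them were Hmox1 (2.37 ± 0.21, edgeR, adjusted p = 1.171e-10), Blvra (2.18 ± 0.19, adjusted p = 1.871e-10) and the haemoglobin receptor Cd163 (3.99 ± 0.28, adjusted p = 8.147e-13). The ferritin genes Fth1 and Ftl1 were higher by 1.01 ± 0.21 and 0.74 ± 0.17. In stellate or fibroblast-like nuclei 16 were higher and 12 lower, near the 23.7% and 17.8% of all genes tested. Steap4 was higher there by 2.69 ± 0.23 (edgeR, adjusted p = 8.629e-11) and Heph by 3.64 ± 0.34 (adjusted p = 3.885e-10).

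Genes among those whose levels were most like those of each member over 27 sums (9 classes in 3 libraries, log2(CPM + 1), 16512 genes) are given as a description, since the sums share libraries and hepatocyte RNA. For Hamp these were Ttr (Pearson r 0.97) and Plg (0.96), for Trf Gk (0.98), Plg (0.97) and Clpx (0.97), and for Tfr2 Sec24a (0.97), BC024386 (0.97) and Amdhd1 (0.96). For Bmp6 they were Ptprb (0.85), Stox2 (0.84) and Myzap (0.84), for Bmp2 Plxnd1 (0.93), Akap12 (0.89) and Dpysl3 (0.89), and for Slc40a1 Ank2 (0.91), Adgb (0.88) and Rims3 (0.87). Tfrc was most like Nhej1 (0.95), Tesmin (0.92) and Sec14l4 (0.92), Tmprss6 like BC005561 (0.91), D530033B14Rik (0.91) and Cep85 (0.89), Hfe like Prpf31 (0.91), Ss18l2 (0.90) and 2210016F16Rik (0.89), and Hamp2 like Gm14232 (0.88), Gm43964 (0.84) and Klhdc8a (0.83).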

How the data were processed

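Nuclei from the livers of 1 ND and 2 STZ-HFHC mice were analysed. The deposited values are raw UMI counts, which the authors made with Cell Ranger 7.0.1 on mm10 according to the submitters' processing notes. Kept barcodes had 200 to 5000 genes and no more than 5% of UMIs from mitochondrial genes. Counts scaled to the same total per nucleus were log-transformed, 2000 variable genes outside the iron list gave 30 principal components, and nuclei were clustered with Scanpy 1.11.5 and leidenalg 0.10.2 (15 neighbours, resolution 1, 25 clusters, 3 left unnamed). A cluster took the class whose markers were most often raised 2-fold over their median in the other clusters. Clusters of hepatocytes with few such markers were named in a second step, and its list was widened from 10 to 26 genes after 2 ND clusters had stayed unnamed.

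Members and gene lists were chosen with earlier results of these data known. Classes were compared with the quasi-likelihood test of edgeR 4.0.16 on UMI sums (9 classes with at least 20 nuclei per library, library as a term, total UMIs as library size, 11694 genes, Benjamini-Hochberg, threshold 0.05). The library term takes up the level of each mouse. The spread is therefore that of class differences over 3 mice of 2 conditions, shared by all 9 classes. The sums of a library also share its hepatocyte RNA. Ratios to ND were computed with 0.5 added to each sum. The fold rule required 50 UMIs and a log2 ratio of 1 in both mice. Named genes were the 10 members, the 3 genes most like each and at most 5 genes of the iron list per class and direction, while clusters' leading genes and the further iron genes named between classes (Blvra, Cd163, Fth1 and Ftl1) were chosen after their values were seen. A few genes that these rules name are not reported here. Doublets were kept in the main setting, since the automatic threshold of Scrublet marked 1, 0 and 0 nuclei and did not work, and leaving out the top 8% of scores was an alternative. Thinning left out nuclei with fewer than 1000 UMIs, among them 230, 35 and 40 hepatocyte-like and 119, 97 and 92 endothelial-like nuclei. No correction for free RNA is named in the sources used here. Of 32285 gene identifiers, 32235 were found in GENCODE M21. Scripts were tested on simulated data.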

Additional observations from a re-analysis of the deposited data

Results flagged for a closer look

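Each result here is a contrast that pointed one way in one class, range or group and the opposite way in another, in both STZ-HFHC mice. None of these differences was tested, since there was 1 ND mouse. The log2 ratio of Bmp2 to ND was below 0 in hepatocyte-like nuclei of both mice and, in CPM, above 0 in the endothelial-, macrophage- and stellate or fibroblast-like classes, and the difference of mean ratios was 1.51 for endothelial-like, 2.19 for macrophage-like and 1.08 for stellate or fibroblast-like minus hepatocyte-like nuclei. Per marker UMI the Bmp2 ratio turned to -0.24 in endothelial-like and -1.47 in stellate or fibroblast-like nuclei, and in the latter to -0.43 with no upper limit on genes, and in endothelial-like nuclei of STZ-HFHC 2 its CPM ratio was within counting error of ND. For Bmp6 the ratio was below 0 in stellate or fibroblast-like nuclei, and the difference to them was 1.43 for hepatocyte-like, 1.18 for endothelial-like and 0.964 for macrophage-like nuclei. The Bmp6 ratio of stellate or fibroblast-like nuclei turned to 0.45 at resolution 0.5 and 1.18 with each library clustered alone, and that of endothelial-like nuclei to -0.42 per marker UMI. The Bmp2 values of macrophage-like nuclei rest on 7 UMIs in ND. In ND the stellate or fibroblast-like class held more endothelial marker RNA, as given above.

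The log2 ratio of periportal to pericentral range had opposite signs in ND and in both STZ-HFHC mice for 4 members. The mean of STZ-HFHC minus ND was 1.58 for Hamp, 1.97 for Hamp2, 1.85 for Bmp6 and -0.36 for Tmprss6. The ND values were -0.02 for Hamp, -0.17 for Bmp6 and 0.03 for Tmprss6, with overlapping counting intervals of both ranges, and the pericentral value of Hamp2 rests on 7 and 2 UMIs in STZ-HFHC. Whether the ranges mark the same zones in both groups was not tested.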

How the results depend on the processing

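The lower levels of Hamp, Tfr2 and Trf in hepatocyte-like nuclei kept their direction under the 11 alternatives run for each, with log2 ratios to ND of -2.62 to -1.81, -1.34 to -1.20 and -1.98 to -1.44. Bmp6 and Bmp2 in endothelial-like and Slc40a1 in macrophage-like against hepatocyte-like nuclei stayed called under all 14 alternatives, at 3.25 to 3.78, 3.03 to 4.10 and 1.91 to 2.64. Ratios to ND in other classes were less stable, and the cause was not tested. Slc40a1 in macrophage-like nuclei was at -0.80 at resolution 0.5, -1.02 at resolution 2, -0.60 when thinned, 1.51 without top doublet scores, 0.29 as a mean over nuclei, 1.33 with hepatocyte RNA subtracted and -0.36 per marker UMI. Bmp6 in endothelial-like nuclei was at 1.07 with hepatocyte RNA subtracted and -0.42 per marker UMI, and Bmp2 at -0.24 per marker UMI. Reversed were also Slc40a1 in hepatocyte-like nuclei named by the shorter list (-0.0234), Hfe in macrophage-like nuclei without top doublet scores (0.19), Bmp6 in stellate or fibroblast-like nuclei at resolution 0.5 (0.45) and with each library clustered alone (1.18), and Bmp2 there with no upper limit on genes (-0.43) and per marker UMI (-1.47). The shorter list and the marker scale were chosen after seeing the data.

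Without 1 STZ-HFHC replicate, the ratio to ND ranged from -2.62 to -1.81 for Hamp and -0.36 to -0.21 for Tfrc in hepatocyte-like nuclei, 0.76 to 0.89 for Slc40a1 in macrophage-like nuclei, and 0.20 to 0.79 for Bmp6 and 0.09 to 1.27 for Bmp2 in endothelial-like nuclei. Genes past the fold rule in hepatocyte-, endothelial-, macrophage- and stellate or fibroblast-like nuclei numbered 1329, 849, 1143 and 1398 at 200 UMIs and 478, 286, 527 and 491 at a log2 ratio of 2, with 1150 and 469 when thinned for the hepatocyte- and stellate or fibroblast-like classes and 1381 with no upper limit on genes for the latter.

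Thinned, Hamp and Trf were called lower in endothelial-like than in hepatocyte-like nuclei (-0.69, adjusted p = 0.00105 and -0.56, adjusted p = 0.00429 by edgeR), and Trf also without ND replicate 1 (-0.39, adjusted p = 0.0385, with -0.39 to -0.16 when 1 replicate is left out). In the same contrast Tfr2 was called lower under 4 of 14 alternatives (-0.78 to -0.46), Tmprss6 under 2 and Tfrc under 1, and Slc40a1 higher under 3 (0.35 to 1.00). Tfrc in macrophage-like against hepatocyte-like nuclei turned to -0.063 with TMM, -0.16 at resolution 0.5, -0.0053 with no upper limit and -0.14 when thinned, and ranged from -0.085 to 0.13 without 1 replicate. Slc40a1 in stellate or fibroblast-like against endothelial-like nuclei turned to -0.25 when thinned. Without the library term 940, 1438 and 1625 genes were called for endothelial-, macrophage- and stellate or fibroblast-like against hepatocyte-like nuclei, and 639 and 600 for macrophage- and stellate or fibroblast-like against endothelial-like nuclei, the last at 3114 with no upper limit. Leaving out 1 replicate gave 1444 to 4496, 1588 to 6134, 2246 to 6579, 942 to 2733 and 643 to 3167 genes in this order, the highest each time without ND replicate 1. The share of called genes that were higher moved from 82.3% to 67.2% with TMM for endothelial-like and from 69.4% to 57.3% for macrophage-like against hepatocyte-like nuclei, and from 60.3% to 69.1% for stellate or fibroblast-like against endothelial-like nuclei.

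ND and STZ-HFHC mice could not be paired because there is 1 ND mouse, whose label carries no replicate number. Classes were compared within each mouse through the library term. Each library clustered alone gave no macrophage-like nuclei of ND, and resolution 0.5 no endothelial-like nuclei of STZ-HFHC, so these have no values.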

Other observations

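Of the 3 clusters left unnamed, cluster 5 (40, 763 and 987 nuclei) held endothelial and macrophage markers together, with Bmp6 at 362, 234 and 189 CPM, Bmp2 at 108, 123 and 68.5 CPM and Slc40a1 at 337, 325 and 300.5 CPM in ND, STZ-HFHC 1 and STZ-HFHC 2. Cluster 12, led by mitochondrial genes, had Hamp at 231 and 89.4 CPM in STZ-HFHC, above the 101 and 57.5 CPM of the hepatocyte-like nuclei of those mice. Cluster 20, led by Siglech, a gene of plasmacytoid dendritic cells, had Tfrc at 114, 125 and 80.9 CPM from 9, 27 and 35 UMIs, above the range of 38.1 to 48.9 CPM in hepatocyte-like nuclei and of the macrophage-like nuclei, 37.8 to 59.8 CPM.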
